A study of Mus musculus with 12 samples.

Results

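A group of 9 genes that make, sense, move or remove extracellular adenosine was followed in mouse B lymphocytes: Entpd1, Nt5e, Ada, Adk, Pnp, Adora2a, Adora2b, Slc29a1 and Dpp4. They were chosen by name, and each matched 1 of the 54532 gene rows of the deposited count table. The cells were primary B lymphocytes sorted from wild type mice and from mice labelled Tmem173-/-, with 3 mice of each genotype. The gene Tmem173 codes for STING, a sensor of cyclic dinucleotides such as the bacterial compound 3'3'-cGAMP. The 4 groups of 3 libraries were wild type control, wild type with 3'3'-cGAMP for 12 hours, Tmem173-/- control, and Tmem173-/- with 3'3'-cGAMP for 12 hours. Age, sex, strain, the sorting markers, the cGAMP dose and what the control wells received are not given in the sources used here. The labels do not say which libraries share a mouse, so p-values measure the spread between these libraries, which may be partly technical.

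Extracellular ATP is a danger signal that surface enzymes turn into adenosine, a nucleoside that restrains many immune cells. ENTPD1 (CD39) cuts ATP and ADP to AMP, and NT5E (CD73) cuts AMP to adenosine. Adenosine is sensed by G-protein-coupled receptors, of which ADORA2A and ADORA2B raise cyclic AMP. It enters cells through equilibrative transporters such as SLC29A1 (ENT1). Inside, adenosine kinase (ADK) returns it to AMP, whereas adenosine deaminase (ADA) makes inosine, which purine nucleoside phosphorylase (PNP) then splits. DPP4 (CD26) is a surface peptidase that anchors ADA on human cells. B cells are known to carry CD39 and, in part, CD73.

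Total assigned counts ran from 26490593 to 31417833 per library. Among controls, the RNA of Tmem173 did not show the genotype label. CPM are counts scaled to library size by the TMM method. Controls ranged from 91.2 to 102 CPM in wild type and from 80.2 to 103 CPM in Tmem173-/-. Each library's genotype is thus taken from the labels. With cGAMP, Tmem173 RNA was 44.7 to 49.2 CPM in wild type and 82.9 to 101 CPM in Tmem173-/- cells. In the edgeR test used below, it was 1.97-fold higher in Tmem173-/- cells under cGAMP (adjusted p = 9.88e-07). The same test passed 47.8% of all genes in the wild type response and 0.0% in the Tmem173-/- response. B cell markers were abundant throughout, with 10 markers summing to 8318 to 9429 CPM in wild type controls, 5992 to 6726 CPM after cGAMP, and 8449 to 9807 CPM over the Tmem173-/- libraries. In the wild type response 8 of these 10 were lower and 2 higher by the test used below. Mitochondrial counts were 1.19% to 1.32% of the total in the wild type cGAMP libraries and 1.61% to 2.26% in all others. Replicate 1 of both wild type groups stood apart: its 14 T cell markers summed to 24.0 CPM in the control and 38.8 CPM under cGAMP, against 5.88 to 15.1 CPM in the 10 other libraries. Of these 14 markers 10 could be tested, with 1 lower in the wild type response. In the same 2 libraries 8 neutrophil markers summed to 9.26 CPM in the control and 23.8 CPM under cGAMP, against at most 1.77 CPM in the 10 others, with Ly6g and Elane at 0 counts in all 12. In bulk libraries such as these, fewer cells of a type and less RNA per cell cannot be told apart.

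Promoter sequence was matched for 8 of the 9 genes in a RefSeq table of mouse promoters (GRCm38.p6), with 17 start sites in all. The 250 bases upstream of each start were searched on both strands for an ISRE (GAAA repeated after 2 free bases), a GAS element (TTCNNNGAA), a kB site (GGG, 5 free bases, CC), a CRE (TGACGTCA) with its shorter core (TGACG, which lies within the full CRE), and an HRE (ACGTG). Among 32817 promoters, these letters occurred in 2.97%, 7.01%, 45.8%, 1.55%, 17.8% and 16.6% respectively. A set of 4 windows is shown 5′ to 3′, with every match in capitals. Adk and Entpd1 are the kinase and the ATP hydrolase whose RNA moved in opposite directions, and each window shown holds the short CRE core. Ada and Dpp4, neither of which passed a test, hold the letters of a GAS element (Ada, with 4 kB sites) and of an ISRE (Dpp4).

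Adk (chr14:21052324-21052573, plus strand): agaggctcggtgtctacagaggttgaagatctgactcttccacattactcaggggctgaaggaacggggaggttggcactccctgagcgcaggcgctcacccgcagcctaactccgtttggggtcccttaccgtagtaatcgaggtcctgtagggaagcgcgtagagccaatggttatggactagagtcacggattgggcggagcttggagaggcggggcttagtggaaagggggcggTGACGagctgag

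Entpd1 (chr19:40612116-40612365, plus strand): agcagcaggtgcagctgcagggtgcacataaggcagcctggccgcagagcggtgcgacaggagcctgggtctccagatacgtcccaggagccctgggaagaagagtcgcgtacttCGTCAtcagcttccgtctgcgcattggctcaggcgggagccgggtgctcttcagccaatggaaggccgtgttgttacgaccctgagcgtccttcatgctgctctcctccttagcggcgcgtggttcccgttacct

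Ada (chr2:163750240-163750489, minus strand): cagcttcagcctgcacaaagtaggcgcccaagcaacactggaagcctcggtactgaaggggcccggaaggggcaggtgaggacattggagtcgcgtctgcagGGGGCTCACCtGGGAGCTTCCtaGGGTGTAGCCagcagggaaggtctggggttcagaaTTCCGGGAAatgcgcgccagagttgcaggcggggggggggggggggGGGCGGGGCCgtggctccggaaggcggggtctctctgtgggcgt

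Dpp4 (chr2:62412232-62412481, minus strand): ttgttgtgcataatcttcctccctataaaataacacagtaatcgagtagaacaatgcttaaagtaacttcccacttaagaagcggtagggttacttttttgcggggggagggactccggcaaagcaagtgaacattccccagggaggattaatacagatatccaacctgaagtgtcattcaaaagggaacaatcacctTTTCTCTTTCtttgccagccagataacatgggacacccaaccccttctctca

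The match in Adk (GRCm38.p6) lies at bases -12 to -8 from the start site and that in Entpd1, on the opposite strand, at -135 to -131. The GAS letters of Ada lie at -90 to -82 and the ISRE letters of Dpp4 at -52 to -43. No full CRE was found in any of the 17 windows, and the single Pnp window held none of the 6 motifs. The GAS and ISRE letters were each in 1 of the 17 windows. The short CRE core was also in the other Entpd1 window (-183 to -179) and in a window of Slc29a1 (-61 to -57). The other Adk window held a kB site and no CRE core. These are matches of letters, and neither factor binding nor the start site used in these cells was measured.

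In wild type controls the 9 transcripts spanned a wide range of level per length. By the deposited FPKM (mean ± SD, n = 3), Dpp4 was at 42.4 ± 5.12, Slc29a1 at 24.7 ± 4.72, Adk at 21.5 ± 3.60, Pnp at 20.8 ± 0.954 and Adora2a at 18.4 ± 2.87. Below these came Entpd1 at 7.63 ± 0.941, Ada at 3.32 ± 0.572 and Nt5e at 0.714 ± 0.243. Adora2b closed the order at 0.0175 ± 0.0303. Neighbours from Slc29a1 down to Adora2a overlapped between libraries and do not differ beyond their spread, whereas Dpp4 stood above Slc29a1, and the steps from Adora2a down to Adora2b did not overlap. The order depends on the length used. The FPKM imply 1240 bases for Adk and 1059 for Entpd1, against 8526 and 5580 in the length column beside the counts. With CPM per kilobase of that column, over all 12 libraries, Adk moved from rank 3 to rank 5 and Ada passed Entpd1. Pnp and Adora2a each moved up by a rank, and Dpp4, Slc29a1, Nt5e and Adora2b kept theirs.

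**Figure D1:**
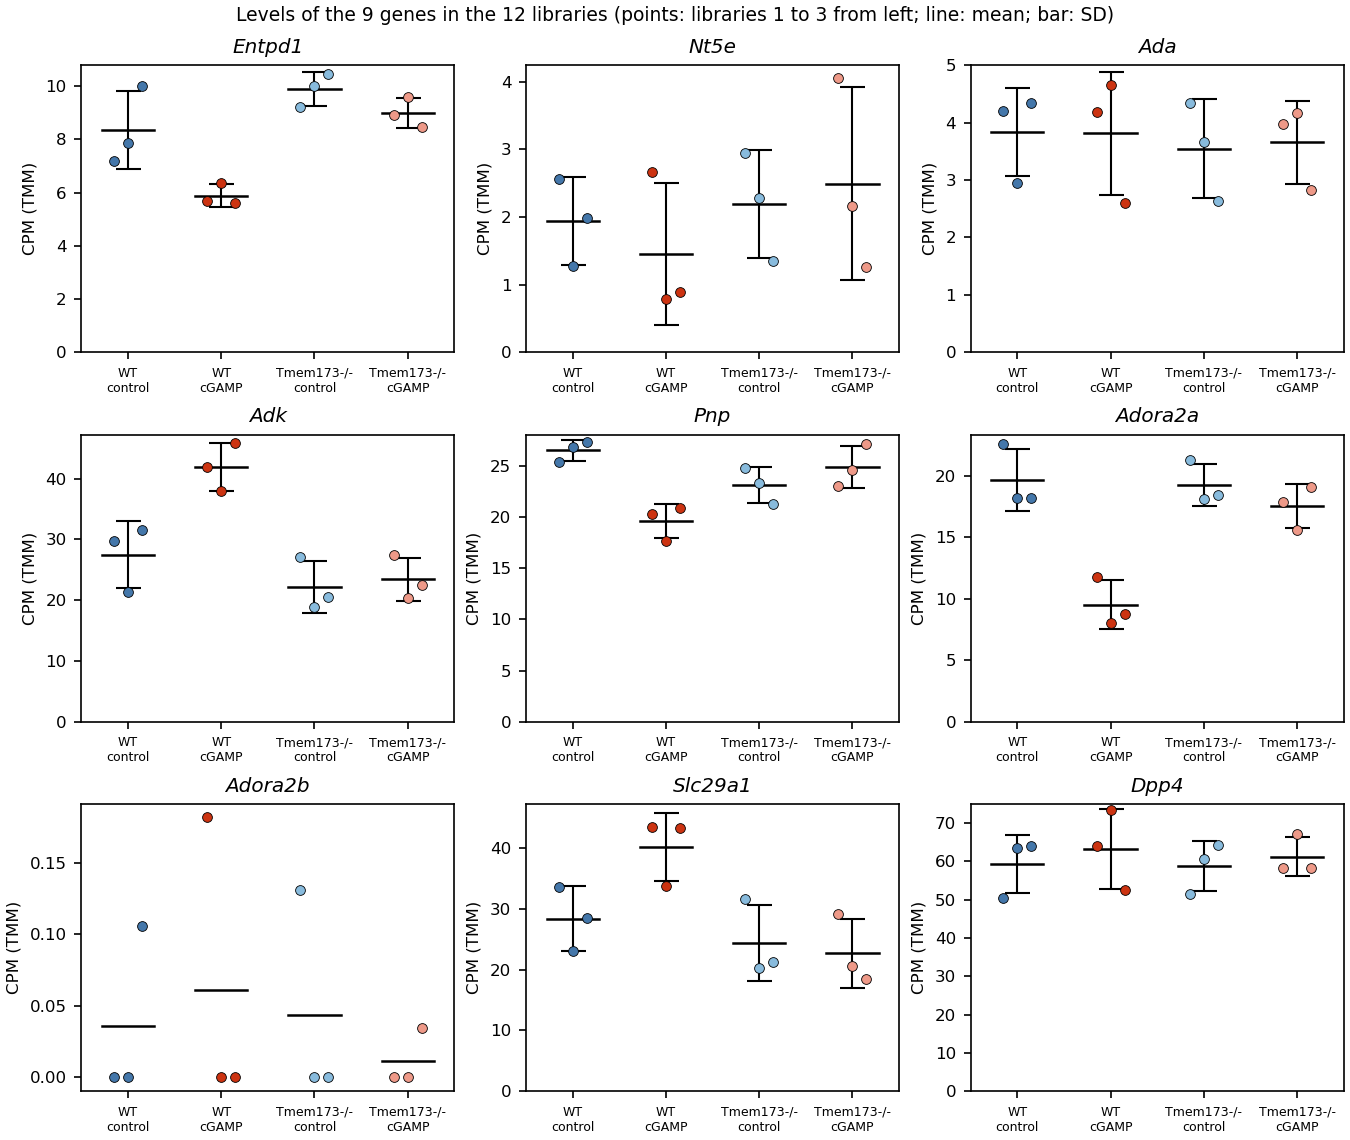
Level of each gene in CPM (TMM-scaled, linear axis) in the 4 groups; points are the 3 libraries of a group from 1 to 3, horizontal lines their mean, and bars the SD, left out for Adora2b where they would pass below 0. The 3 wild type cGAMP libraries of Adora2a lie between 8.02 and 11.8 CPM, under all 9 others, and those of Adk between 38.0 and 45.8 CPM, above all 9 others.

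Across the 8 genes that passed the filter on low counts, cGAMP in wild type cells lowered the receptor Adora2a, the hydrolase Entpd1 and the phosphorylase Pnp, and raised the kinase Adk. These 4 passed edgeR's quasi-likelihood test at an adjusted p of 0.05 (Benjamini-Hochberg over 14473 genes). In the same comparison 47.8% of all tested genes passed (22.4% higher, 25.4% lower), so 4 of 8 is near the background. The median log2 fold change was -0.22 for the 8 genes and -0.00 for all tested genes. In Tmem173-/- cells none of the 8 passed in edgeR, DESeq2 or limma-voom, and none had an unadjusted p under 0.05. There the background was 0.0% in edgeR, with 203 of 14473 genes at an unadjusted p under 0.05. The 8 genes had a median log2 fold change of 0.05 in Tmem173-/- cells, against -0.00 over all genes.

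Entpd1 (ENSMUSG00000048120, GRCm38 chromosome 19, 40612366 to 40741602, plus strand) encodes CD39, the enzyme at the head of the pathway. Wild type controls held 7.20, 7.88 and 9.9997 CPM, and the wild type cGAMP libraries 5.68, 6.37 and 5.59 CPM. Tmem173-/- libraries held 9.22, 10.01 and 10.47 CPM as controls and 8.93, 9.59 and 8.46 CPM with cGAMP. The wild type cGAMP libraries were thus lowest of all, while the other 3 groups overlapped in part. The wild type log2 fold change was -0.51 (SE 0.15, edgeR adjusted p = 0.00932), a 1.42-fold fall. Without wild type control replicate 3 it was -0.36 and no longer passed (adjusted p = 0.0611), and it passed in the other 22 of 23 alternative fits. Under cGAMP, Entpd1 was 1.53-fold higher in Tmem173-/- than in wild type cells (log2 0.61, SE 0.15, adjusted p = 0.00242). The difference between the responses of the genotypes, -0.37, did not pass (95% interval -0.80 to 0.06, adjusted p = 0.186). The pseudogenes Gm16027 and Gm8783 lie within Entpd1 on the same strand, with counts equal to 1.26% and 2.98% of its own, and reads could be split among them.

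Nt5e (ENSMUSG00000032420, GRCm38 chromosome 9, 88327197 to 88372092, plus strand) encodes CD73, which makes adenosine from AMP. It was a low transcript with 691 counts over the 12 libraries. Its levels were 2.56, 1.27 and 1.98 CPM in wild type controls and 2.66, 0.792 and 0.890 CPM with cGAMP. Tmem173-/- cells held 2.94, 2.28 and 1.35 CPM as controls and 4.06, 2.16 and 1.26 CPM with cGAMP. Replicate 1 was the highest library of each group, and all groups overlapped. The wild type log2 fold change was -0.42, with an interval from -1.50 to 0.65 (adjusted p = 0.516), so a change of more than 2-fold in the downward direction lies inside it. With 1 library left out it ran from -1.20 without wild type cGAMP replicate 1 to -0.13 without wild type cGAMP replicate 2. Nt5e passed in none of the 5 comparisons in this fit. Between genotypes under cGAMP it did pass with no filter on low counts (0.80, adjusted p = 0.0456).

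CD73 is also a protein of T cells. In each wild type group, replicate 1 was highest both in Nt5e and in the sum of T cell markers. Wild type control replicate 3 had more Nt5e than replicate 2 (1.98 against 1.27 CPM) but a slightly lower sum. Cd5 was the largest marker in wild type control replicate 2 (181 counts), with Cd3e and Cd4 at 0. In counts, Cd5 was 157, 181 and 174 in wild type controls and 69, 64 and 47 with cGAMP. The 14 T cell markers summed to 24.0, 11.9 and 11.5 CPM in wild type controls and to 38.8, 6.06 and 5.88 CPM under cGAMP. In Tmem173-/- libraries the sums were 15.1, 10.3 and 12.95 CPM as controls and 9.27, 10.2 and 13.5 CPM with cGAMP. The highest Nt5e library of all, Tmem173-/- cGAMP replicate 1, thus had the lowest T cell sum of its group, by a narrow margin. Most of its sum was Cd5 (133 counts) and Trac (39), with Cd3e and Cd4 at 0. Without both wild type replicate 1 libraries the wild type log2 fold change of Nt5e was -0.95 (adjusted p = 0.180). The genotype difference under cGAMP then moved from 0.78 (adjusted p = 0.215) to 1.56 (adjusted p = 0.0201), Tmem173-/- being higher. Leaving out wild type cGAMP replicate 1 alone gave the same side of the threshold (1.56, adjusted p = 0.0190). The part of T cell transcripts in these values was not tested further.

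**Figure D2:**
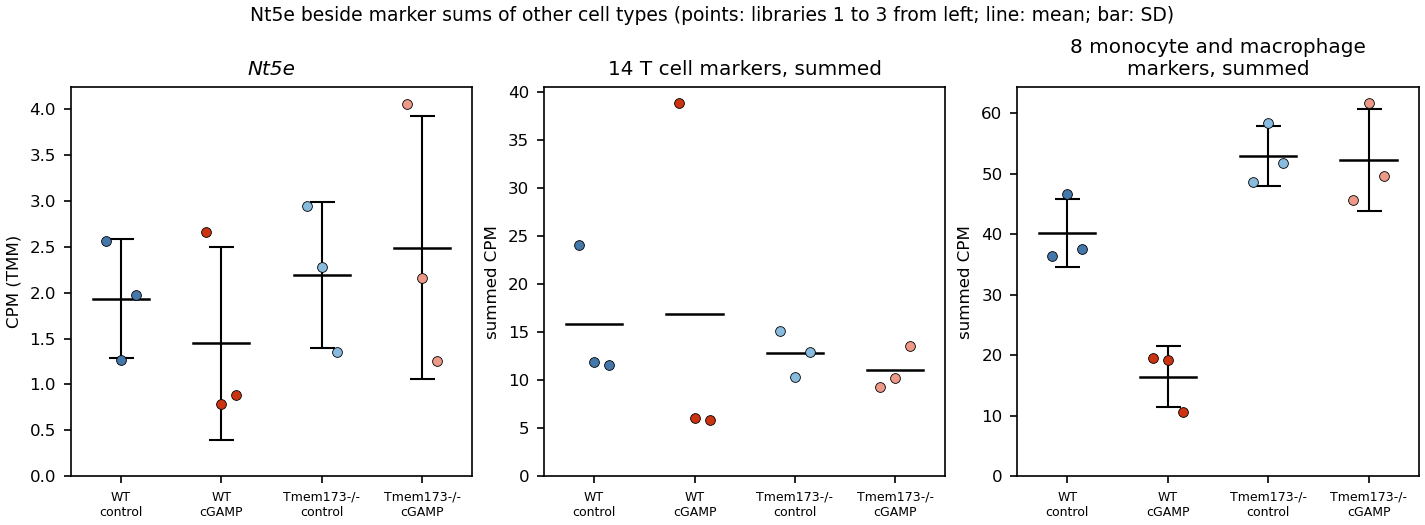
Nt5e in CPM (left) beside the summed CPM of 14 T cell markers (middle) and of 8 monocyte and macrophage markers (right), linear axes; points are libraries 1 to 3 of each group, lines the mean, and bars the SD, left out in the middle panel where they would pass below 0. Wild type cGAMP replicate 1 is the highest of its group for Nt5e (2.66 CPM) and for T cell markers (38.8 CPM), whereas Tmem173-/- cGAMP replicate 1, at 4.06 CPM of Nt5e, has a T cell sum of 9.27 CPM.

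The FPKM ratio of Entpd1 to Nt5e, successive enzymes of the pathway, was 6.97, 15.5 and 12.6 in wild type controls, 5.31, 20.0 and 15.6 with cGAMP, 7.78, 10.9 and 19.3 in Tmem173-/- controls, and 5.47, 11.0 and 16.7 in Tmem173-/- cells with cGAMP. All 4 groups overlapped, and replicate 1 gave the lowest ratio in each.

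Adora2a (ENSMUSG00000020178, GRCm38 chromosome 10, 75316877 to 75334784, plus strand) encodes the high-affinity receptor that couples adenosine to cyclic AMP. It showed the largest fitted change of the 8 genes in wild type cells. Levels were 22.6, 18.2 and 18.2 CPM in wild type controls and 11.8, 8.02 and 8.72 CPM after cGAMP. In Tmem173-/- cells they were 21.3, 18.1 and 18.5 CPM without and 17.9, 15.6 and 19.1 CPM with cGAMP. All 3 wild type cGAMP libraries were below the 9 others, which overlapped with each other. The fall was 2.07-fold (log2 -1.05, SE 0.15, edgeR adjusted p = 2.59e-05), against a log2 fold change of -0.14 (interval -0.44 to 0.16) in Tmem173-/- cells. The responses differed between genotypes by -0.91 (SE 0.20, adjusted p = 0.00314), and both values passed in every alternative fit. Macrophages and T cells also express Adora2a. Summed over 8 monocyte and macrophage markers, the level was 36.4 to 46.7 CPM in wild type controls and 10.6 to 19.5 CPM after cGAMP, with 2 of 6 tested markers lower. In the Tmem173-/- libraries that sum was 45.6 to 61.8 CPM. In wild type controls most of the sum was Adgre1, with 648, 1080 and 889 counts, against 117, 153 and 104 after cGAMP. Lyz2 (177, 79 and 17, then 216, 219 and 55 counts) and Cd68 (156, 115 and 127, then 143, 151 and 121) overlapped between these groups. The sum thus fell together with Adora2a and Entpd1 mainly through Adgre1. The part of monocyte and macrophage transcripts in either result was not tested. Without both wild type replicate 1 libraries the wild type log2 fold change of Adora2a was -1.12.

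Adora2b (ENSMUSG00000018500, GRCm38 chromosome 11, 62248984 to 62266453, plus strand), the low-affinity receptor of the same kind, was at the limit of detection. It had 13 counts in all, 3 in wild type controls, 5 in wild type with cGAMP, 4 in Tmem173-/- controls and 1 in Tmem173-/- with cGAMP. Of the 12 libraries, 8 held 0 counts, and a count of 0 allows up to 3 counts, or 0.0981 to 0.112 CPM. It did not pass the filter and was not tested in this fit. With no filter on low counts its wild type log2 fold change was 0.70 (edgeR adjusted p = 0.884), and no difference was detectable at this depth. The related receptor genes Adora1 and Adora3 had 0 and 17 counts over all libraries. Adora2a, with 5676 counts, was the most abundant of the 4 adenosine receptor transcripts in these libraries.

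Adk (ENSMUSG00000039197, GRCm38 chromosome 14, 21052574 to 21448569, plus strand) encodes the kinase that recycles adenosine to AMP. Its RNA measured 29.7, 21.3 and 31.5 CPM in the wild type control libraries, against 41.9, 38.0 and 45.8 CPM after cGAMP. The Tmem173-/- libraries held 27.1, 18.9 and 20.6 CPM without and 27.4, 20.3 and 22.6 CPM with cGAMP. Every wild type cGAMP library was above every other library. The rise was 1.52-fold (log2 0.61, SE 0.16, edgeR adjusted p = 0.00531) and passed in all 23 alternatives. The response difference of 0.53 (interval 0.05 to 1.01) did not pass (adjusted p = 0.0869). It passed in 6 of 22 alternatives, among them the fit without Tmem173-/- cGAMP replicate 1, where it was 0.65. Under cGAMP, Adk was 1.79-fold lower in Tmem173-/- than in wild type cells (log2 -0.84, SE 0.16, adjusted p = 0.000448).

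Ada (ENSMUSG00000017697, GRCm38 chromosome 2, 163726584 to 163750239, minus strand), the deaminase that competes with the kinase for adenosine, did not move with treatment beyond its spread. Levels were 4.20, 2.96 and 4.35 CPM in the wild type control libraries, 4.19, 4.65 and 2.60 CPM with cGAMP, 4.35, 3.66 and 2.63 CPM in Tmem173-/- controls and 3.98, 4.16 and 2.82 CPM in Tmem173-/- cells with cGAMP. All groups overlapped. The wild type log2 fold change was -0.01, with an interval of -0.56 to 0.54 (adjusted p = 0.984), and its sign changed with the scaling. The FPKM ratio of Adk to Ada was 6.39, 6.50 and 6.54 in wild type controls and 9.04, 7.37 and 15.9 after cGAMP. It was 5.62, 4.67 and 7.07 in Tmem173-/- controls and 6.20, 4.41 and 7.22 with cGAMP. The 3 wild type cGAMP ratios lay above the 9 others, the highest coming from the library with the lowest Ada level. The ratio is given as a description.

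Pnp (ENSMUSG00000115338, GRCm38 chromosome 14, 50931082 to 50965237, plus strand) encodes the phosphorylase that takes inosine and guanosine apart. Its levels were 25.4, 26.9 and 27.3 CPM in wild type controls and 20.3, 17.7 and 20.9 CPM after cGAMP. In Tmem173-/- cells they were 24.9, 23.4 and 21.3 CPM without and 23.0, 24.7 and 27.1 CPM with cGAMP. The replicates were tight, and the wild type cGAMP libraries lay below all others. The fall was 1.35-fold (log2 -0.44, SE 0.10, edgeR adjusted p = 0.00222). The fitted value in Tmem173-/- cells was 0.11 (interval -0.11 to 0.32), and the difference between the responses, -0.54 (SE 0.14, adjusted p = 0.00895), passed in the same fit and in every alternative. Under cGAMP, Pnp was higher in Tmem173-/- than in wild type cells (log2 0.35, SE 0.10, adjusted p = 0.0101). Without Tmem173-/- cGAMP replicate 3 that value was 0.29 (adjusted p = 0.0532). The control groups of the genotypes did not overlap for Pnp either, Tmem173-/- being lower in all 3 libraries, but the difference of -0.20 did not pass (adjusted p = 0.728). The near-identical neighbour Pnp2 lies inside the span of Pnp, with counts equal to 1.97% of those of Pnp. Reads that fit both cannot be assigned with certainty.

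Slc29a1 (ENSMUSG00000023942, GRCm38 chromosome 17, 45585200 to 45599606, minus strand) encodes ENT1, which lets adenosine cross the plasma membrane in either direction. The wild type control libraries held 33.6, 23.0 and 28.5 CPM, and those with cGAMP 43.5, 33.7 and 43.3 CPM. Tmem173-/- libraries held 31.6, 20.3 and 21.3 CPM as controls and 29.1, 20.5 and 18.4 CPM with cGAMP. The wild type cGAMP libraries were the 3 highest, by a narrow margin over wild type control replicate 1. The wild type log2 fold change of 0.50 (interval 0.06 to 0.94) missed the threshold in edgeR (adjusted p = 0.0576). Of 23 alternatives, 13 put it past the threshold, DESeq2 and limma-voom included, with adjusted p from 0.000154 to 0.200 over all 23. The response difference of 0.61 did not pass either (interval -0.02 to 1.23, adjusted p = 0.131), except in 3 of 22 alternatives, 1 of them the fit without Tmem173-/- cGAMP replicate 1 (0.82). Between genotypes under cGAMP the gene did pass, 1.77-fold lower in Tmem173-/- (log2 -0.83, SE 0.20, adjusted p = 0.00443). The antisense gene Gm17080 overlaps Slc29a1 with 1.28% of its counts, and without stated strandedness these reads cannot be told apart.

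Dpp4 (ENSMUSG00000035000, GRCm38 chromosome 2, 62330073 to 62412231, minus strand), the surface peptidase, was the most abundant of the 9 and did not pass in any comparison. Wild type libraries held 50.6, 63.6 and 64.0 CPM as controls and 64.0, 73.4 and 52.6 CPM with cGAMP. Tmem173-/- libraries held 51.6, 60.6 and 64.3 CPM as controls and 58.3, 67.1 and 58.3 CPM with cGAMP. The groups overlapped throughout. Its log2 fold change was 0.09 in wild type cells (interval -0.17 to 0.36, adjusted p = 0.570) and 0.06 in Tmem173-/- cells (interval -0.21 to 0.32). A wild type change larger than 0.36 on the log2 scale therefore lies outside its interval. The antisense gene Gm13561 overlaps Dpp4 with 0.758% of its counts.

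Between genotypes, the 8 genes were tested without and with cGAMP. Among controls none passed in edgeR, DESeq2 or limma-voom, none had an unadjusted p under 0.05, and 0.0% of all genes passed in edgeR (4 genes in DESeq2, and 921 at an unadjusted p under 0.05 in edgeR). With cGAMP 5 of 8 passed, Adora2a, Entpd1 and Pnp higher and Adk and Slc29a1 lower in Tmem173-/- cells, where 48.3% of all genes passed (24.9% higher, 23.5% lower). This comparison shares the wild type cGAMP libraries with the wild type response, so its directions are not independent of it. In the test of the response difference 2 of 8 passed, Adora2a and Pnp, both lower, against 31.6% of all genes (14.1% higher, 17.5% lower). Adk, Entpd1 and Slc29a1 did not pass it, although Adk passed in 6 and Slc29a1 in 3 of the 22 alternatives, as given above. For both genes these include the fit with the replicate number as a block. Without both wild type replicate 1 libraries, 4 genes passed in the wild type response, 2 in the response difference and 6 between genotypes under cGAMP, the addition being Nt5e.

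**Figure D3:**
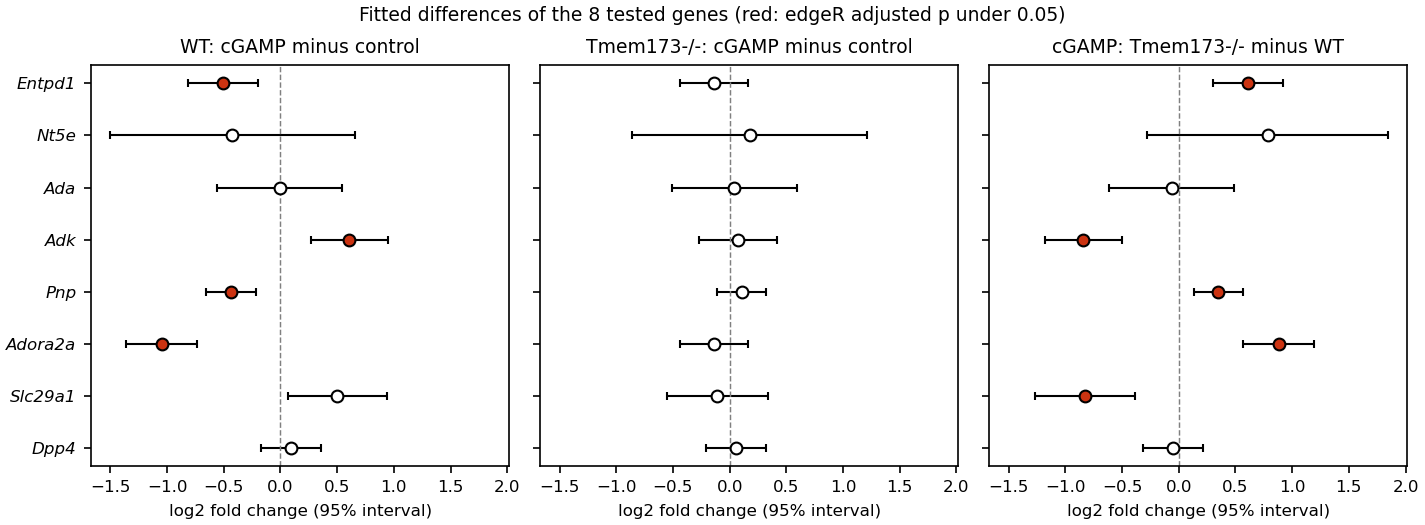
Fitted log2 fold change with 95% interval (horizontal axis) of the 8 tested genes in the wild type response, the Tmem173-/- response, and between genotypes under cGAMP; red points passed edgeR's test and white points did not. Red points number 4, 0 and 5, and the interval of Nt5e, from -1.50 to 0.65 in wild type cells, is the widest.

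Other genes of the pathway were followed in 6 lists of 98 genes, of which 68 passed the filter on low counts. In the wild type response 16 of these were higher, 24 lower and 28 not called, with a median log2 fold change of -0.10. Over all genes tested, 47.8% were called in this comparison (22.4% higher, 25.4% lower), with a median of -0.0036, and each count below reads against these shares. In the Tmem173-/- response none passed in edgeR, DESeq2 or limma-voom and none had an unadjusted p under 0.05. Between the control groups none passed in these tools, with 6 at an unadjusted p under 0.05 in edgeR. The summed monocyte and macrophage markers fell in the wild type cGAMP libraries, mainly through Adgre1, as given above. There 7 dendritic cell markers summed to 39.3 to 47.5 CPM, against 16.1 to 21.2 CPM in the controls (3 of 5 tested higher). In counts, Zbtb46 rose from 215, 206 and 183 to 672, 569 and 701, and Flt3 from 274, 177 and 242 to 510, 469 and 491. Ccr9 held 32, 27 and 30, then 73, 76 and 46. Itgax (55, 34 and 31, then 39, 12 and 31) and Xcr1 (19, 10 and 10, then 10, 6 and 5) did not rise. The part of such markers in the values of these lists was not tested.

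Among other nucleotide hydrolases, 1 of 9 tested was higher and 4 were lower in wild type cells (median -0.11). Alpl, an alkaline phosphatase that can also strip phosphate from AMP, rose from 22.6, 15.5 and 19.4 CPM to 60.7, 45.9 and 59.5 CPM (log2 1.53, SE 0.16, adjusted p = 2.27e-06). Enpp1, which cuts ATP to AMP and degrades the mammalian form of cGAMP, fell from 25.0, 29.9 and 26.1 CPM to 9.32, 9.47 and 12.2 CPM (log2 -1.39, SE 0.12, adjusted p = 1.34e-07). Cd38, an enzyme that consumes NAD, changed by -0.68, and Entpd5, a nucleoside diphosphatase of the endoplasmic reticulum, by -0.57 on the log2 scale. The last of the 4 was Entpd7, named after its value was seen (-0.36, adjusted p = 0.0148).

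Of the 4 other nucleoside transporters tested, 2 were higher and 1 lower (median -0.01). Slc29a2, which encodes the transporter ENT2, rose from 8.41, 7.88 and 7.81 CPM to 20.4, 22.7 and 19.8 CPM (log2 1.38, SE 0.15, adjusted p = 2.07e-06). The groups did not overlap, and Tmem173-/- libraries stayed between 5.83 and 8.76 CPM. Slc29a3, the lysosomal ENT3, was higher by 0.43 (adjusted p = 0.0222) and Slc28a2, a sodium-driven purine nucleoside transporter, was lower by a log2 value of -0.46 (adjusted p = 0.0132). Neither of these last 2 passed when wild type control replicate 2 or wild type cGAMP replicate 1 was left out. Slc28a2 also missed the threshold with library totals (adjusted p = 0.0508) and on the log2(FPKM + 1) and log2(FPKM + 0.1) scales (0.0712 and 0.0681). Slc29a3 also missed it without wild type control replicate 3 (0.0916) or wild type cGAMP replicate 3 (0.0906).

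Genes named or grouped as P2 nucleotide receptors, together with ATP release channels, were 1 higher and 4 lower among 6 tested (median -0.57). P2rx7, the ATP-gated channel that drives inflammasome activation in myeloid cells and is named after its values were seen, had 78, 75 and 63 counts in wild type controls and 13, 1 and 1 with cGAMP. It had 72, 64 and 75 counts in Tmem173-/- controls and 46, 88 and 86 with cGAMP. Its log2 fold change was -3.80 in wild type cells (SE 0.54, adjusted p = 3.12e-05). Panx1, an ATP release channel, changed by -0.61, and P2rx4, another ATP-gated channel, by -0.52. P2ry10, which groups with P2Y receptors by sequence but responds to lysophospholipids, changed by -0.94. P2rx5, also named after its values were seen, was the 1 called higher, at 6, 5 and 6 counts against 32, 7 and 29. Tmem173-/- libraries held 5, 11 and 13 counts as controls and 9, 7 and 9 with cGAMP. At counts this low it passed the filter only with the help of the wild type cGAMP libraries. Its call is therefore no support for a change, and no fold is given. Without wild type cGAMP replicate 1 it did not pass the test.

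Among 22 tested genes of intracellular purine salvage and breakdown, 8 were higher and 5 lower (median 0.11). Nt5c3, a cytosolic nucleotidase that acts mainly on pyrimidine nucleotides, rose from 40.7, 45.4 and 67.8 CPM to 137, 169 and 132 CPM (log2 1.51, SE 0.16, adjusted p = 2.48e-06). Ampd2, which deaminates AMP to IMP, rose from 49.7, 36.0 and 35.6 CPM to 81.5, 72.4 and 79.4 CPM (log2 0.94, SE 0.12, adjusted p = 1.02e-05). The adenylate kinases split, Ak6 of the nucleus rising by 1.07 and Ak3 of the mitochondrion changing by -0.88 on the log2 scale. In none of these 4 did the wild type groups overlap. Ampd3, the other AMP deaminase tested and named after its value was seen, went the other way from Ampd2. It changed by -1.52 (edgeR adjusted p = 0.000255), with 1701 counts over all libraries.

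Of 22 genes of cyclic AMP signalling, the route downstream of the receptor ADORA2A, 3 were higher and 10 lower (median -0.31). Adcy6, a cyclase that makes cyclic AMP, rose from 5.59, 3.06 and 1.98 CPM to 37.7, 20.5 and 21.7 CPM (log2 2.91, SE 0.38, adjusted p = 5.69e-05). Prkaca, the catalytic subunit of protein kinase A, fell from 82.9, 78.1 and 77.5 CPM to 43.8, 37.0 and 39.2 CPM (log2 -0.99, SE 0.08, adjusted p = 6.61e-08). The phosphodiesterases that break cyclic AMP down moved both ways, Pde3b by -1.13 and Pde4a by 1.08. Pde4b (-0.86) and Pde7a (-0.77), named after their values were seen, were also called lower. Pde4d was not called (-0.25). In the test of the response difference 3 genes of the list were higher and 10 lower, where 31.6% of all genes passed (14.1% higher, 17.5% lower).

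In the DPP4 family 1 of 5 tested genes passed, Fap, a surface peptidase best known from activated fibroblasts and named after its values were seen. It had 0, 4 and 0 counts in wild type controls and 23, 42 and 35 with cGAMP, against 4, 0 and 4 and then 1, 0 and 2 counts in Tmem173-/- cells. Fap passed the filter on low counts only through the wild type cGAMP libraries, so its call is no support for a change and no fold is given. The stricter filter removes it.

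**Figure D4:**
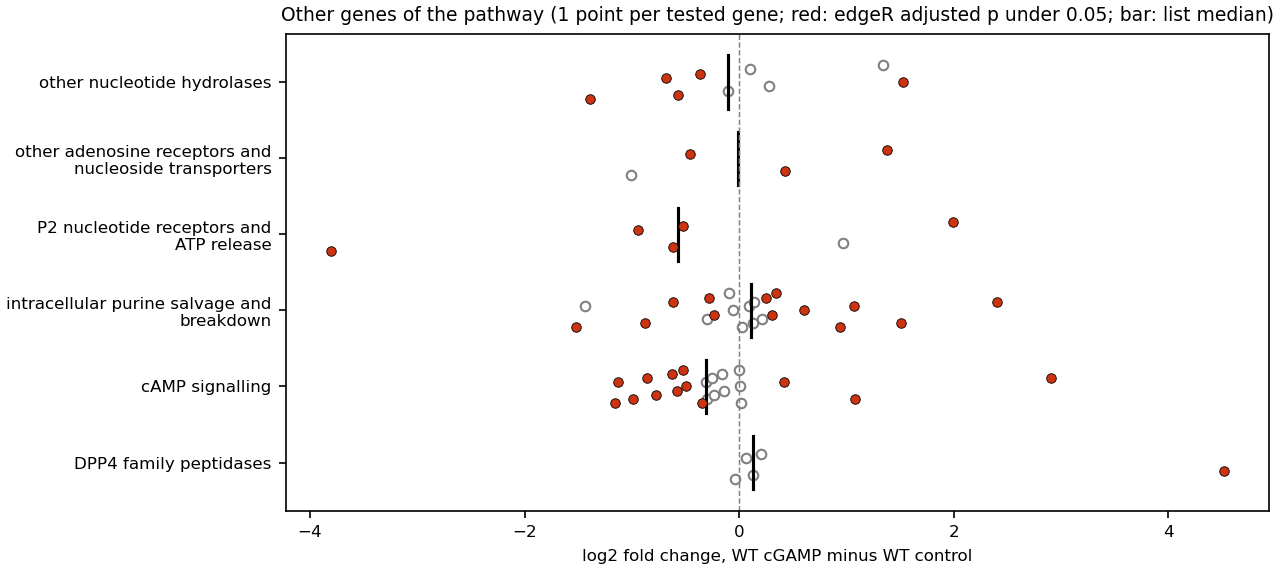
Fitted log2 fold change in wild type cells (cGAMP minus control, horizontal axis) of the 68 tested pathway genes by list; each point is a gene, red where edgeR's adjusted p is under 0.05, and the black bar is the list median. The median lies at -0.57 for P2 receptors and ATP release channels and at -0.31 for cyclic AMP signalling, and at 0.11 for purine salvage.

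Genes whose profile over the 12 libraries was most like that of a called gene were sought among 9127 genes by the root mean square difference of centred log2 CPM. For Adora2a, which itself varied by 0.46 about its mean, the closest were Vsir (0.10), Egr3 (0.11) and Ptprs (0.12). Entpd1 (0.31 about its mean) was closest to Zxdb (0.10), Tbc1d8b (0.10) and Retreg3 (0.10). Adk (0.41) was closest to Wdr55 (0.08), Pa2g4 (0.09) and Nsun2 (0.09), and Pnp (0.19) to Cenpx (0.06), Trmt12 (0.07) and Wsb2 (0.07). Slc29a1 (0.41) was closest to Ppp1r14b (0.11), Fam83g (0.12) and Hspa9 (0.12). These distances describe likeness over libraries that share their scaling and their group structure.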

How the data were processed

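Poly-A RNA of 12 mouse B lymphocyte libraries was sequenced. Per the submitters' processing notes, fastp, STAR and featureCounts were used with GRCm38 (mm10); versions, annotation release and strandedness are not given in the sources used here. The deposited values are whole-number counts per gene and, as a second unit, FPKM per gene made by the authors, whose implied lengths equal the deposited gene length for 24.9% of 14678 genes compared.

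The counts were tested in R 4.3.3 with edgeR 4.0.16: filterByExpr by group (14473 genes), TMM scaling, a mean for each of 4 groups, robust quasi-likelihood F tests (two-sided), and Benjamini-Hochberg adjustment within each of 5 contrasts at 0.05. SE is the size of the log2 fold change over the square root of F, and intervals are 95%. The fit was run on simulated counts with known changes in the wild type cGAMP group. Of 2-fold changes, 64% were recovered in the wild type response and 56% in the response difference. For 4-fold changes these were 84% and 77%. False calls were 7 of 155 and 5 of 138. A first requirement on recovery was not met in the response difference and was replaced by requirements on the estimates and false calls. CPM uses TMM-scaled library sizes. FPKM entered only levels between genes and fits on log2(FPKM + 1) and log2(FPKM + 0.1). Floors of 3 counts cover counting error only. Coordinates are those of the deposited table.

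Named genes are the 9 members, Tmem173, up to 4 genes per pathway list with the largest change among those called in wild type cells at 5 CPM or more in the higher group, and the 3 nearest profiles per called member. Entpd7, P2rx5, P2rx7, Fap, Ampd3, Pde4b, Pde4d and Pde7a were named after their values were seen. Adora1, Adora3, Ly6g and Elane were named as genes at or near 0 counts. Single genes of the marker lists were also named after their values were seen. Overlapping genes are named beside their members. The members, the pathway and marker lists and the motifs were chosen with earlier results of these data known. Alternatives were DESeq2 1.42.0, limma-voom (limma 3.58.1), 2 other scalings, 2 other filters, the compared groups alone, a replicate block, each library left out, and, added after seeing the data, the fit without both wild type replicate 1 libraries and a block across genotypes.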

Additional observations from a re-analysis of the deposited data

Results flagged for a closer look

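In the named genes below the wild type and Tmem173-/- responses to cGAMP differed by edgeR's test of the difference itself (adjusted p under 0.05, values as log2 of the wild type minus the Tmem173-/- response, 3 libraries in each of 4 groups). Of the 9 adenosine genes these were Adora2a (-0.91) and Pnp (-0.54). Among nucleotide hydrolases (4 of 9 tested passed) they were Alpl (1.49), Enpp1 (-1.25), Cd38 (-0.70) and Entpd5 (-0.53). Among transporters (2 of 4) they were Slc29a2 (1.42) and Slc29a3 (0.57), and among P2 receptors and ATP release channels (4 of 6) P2ry10 (-1.12), Panx1 (-0.63), P2rx4 (-0.52) and P2rx7 (-3.87). In purine salvage 9 of 22 passed, 5 higher and 4 lower. Of these, the genes named by the size of their change are Nt5c3 (1.44), Ak6 (0.78), Ampd2 (0.94) and Ak3 (-0.90). In cyclic AMP signalling 13 of 22 passed, 3 higher and 10 lower. Of these, the genes named by the size of their change are Adcy6 (2.43), Pde3b (-1.23), Pde4a (1.16) and Prkaca (-0.96). In the DPP4 family 1 of 5 passed, Fap, whose fitted value (5.81) is no measure of size because the gene passed the filter on low counts only through the wild type cGAMP libraries. Slc29a3 no longer passed in 9 of 12 fits that left out a library. Over all genes, 31.6% differed in this test (14.1% higher, 17.5% lower).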

How the results depend on the processing

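For the 8 tested genes, 40 fold changes in 5 comparisons were refitted 912 times in all. Direction and side of the threshold held in 823 refits, 2 lost and 26 gained a call, and 61 changed sign, none of them past the threshold. The number of genes called in the response difference was 2, and 4 with no filter on low counts, with the replicate block, and without Tmem173-/- cGAMP replicate 1; the cause was not tested. With 1 library left out, calls ranged from 3 to 5 in the wild type response, 2 to 4 in the response difference and 4 to 6 between genotypes under cGAMP, and stayed at 0 in the other comparisons. Ada in the wild type response was 0.010 in DESeq2, 0.010 with median-of-ratios scaling, 0.067 with library totals, 0.0031 with the stricter filter, and 0.035 and 0.038 on log2(FPKM + 1) and log2(FPKM + 0.1). Its response difference was 0.032 with totals and 0.0020 on log2(FPKM + 1). Between controls, Adora2a was 0.019 with totals, 0.025 and 0.027 on the FPKM scales and 0.083 without both wild type replicate 1 libraries, and Dpp4 was 0.042 with totals and 0.039 and 0.040 on the FPKM scales. Without both wild type replicate 1 libraries, Dpp4 was -0.023 in the wild type response and -0.080 in the response difference, and Ada was 0.014 between genotypes under cGAMP. With 1 library left out, the sign was not held by Ada in the wild type response (-0.180 to 0.200), the Tmem173-/- response (-0.133 to 0.216), the response difference (-0.220 to 0.160), between controls (-0.279 to 0.062) and under cGAMP (-0.271 to 0.108). The same held for Dpp4 in these comparisons (-0.030 to 0.206, -0.027 to 0.126, -0.087 to 0.148, -0.118 to 0.078 and -0.163 to 0.072). In the Tmem173-/- response it held for Nt5e (-0.360 to 0.496), Adk (-0.051 to 0.246) and Slc29a1 (-0.326 to 0.127), and between controls for Nt5e (-0.083 to 0.436) and Adora2a (-0.099 to 0.083).

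The replicate number as a block gave 5, 0, 4, 0 and 6 called genes in the wild type response, the Tmem173-/- response, the response difference, and between genotypes without and with cGAMP, and 14 purine salvage genes in the response difference against 9. Among the 8 tested genes, those added were Adk (0.54, edgeR adjusted p = 0.00409) and Slc29a1 (0.61, adjusted p = 0.00142) in the response difference, Slc29a1 in the wild type response (0.51, adjusted p = 0.000209), and Nt5e between genotypes under cGAMP (0.82, adjusted p = 0.0483). Deviations from the group means correlated between same-numbered control and cGAMP libraries at 0.495, 0.289 and 0.041 in wild type and 0.592, 0.253 and 0.374 in Tmem173-/- cells over 9491 genes. Between differently numbered libraries the values ran from -0.499 to 0.114 in wild type and from -0.437 to 0.219 in Tmem173-/- cells. Same-numbered libraries were thus mostly the more alike, except wild type control replicate 3, which was closer to cGAMP replicate 2 (0.114). The labels state no pairs, so the main fit is unpaired, and whether the numbers mark shared mice was not settled. Over all genes, the Tmem173-/- response had 23 calls with no filter against 0, and the control genotypes 151 with no filter, 4 in DESeq2, and 5 without both wild type replicate 1 libraries, against 0. The DPP4 family had 2 calls in the wild type response with totals and on the FPKM scales, and 0 with the stricter filter. Other scalings moved the median of all genes by less than 0.1 (log2). At 13 counts in all, depth limits Adora2b.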
